A study of Homo sapiens with 14 samples.

Results

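A set of 9 genes of the JAK-STAT pathway was followed by symbol through both RNA-seq tables of a study of PAX6 in prostate cancer cells: 6 STAT genes (STAT2, STAT3, STAT4, STAT5A, STAT5B and STAT6) and 3 JAK genes (JAK1, JAK2 and TYK2). All 9 were present among the 24199 features of the DU145 table and among the 44591 genes of the LNCaP table. DU145 is a human prostate cancer line that grows without androgen, and 3 libraries carrying a non-targeting hairpin (shCON, genotype WT in the labels) were compared with 3 libraries carrying a hairpin against PAX6 (shPAX6, PAX6 knockdown). These are stable lentiviral lines, and the sources used here name 2 PAX6 hairpins without saying which was sequenced or whether the 3 libraries came from separate cultures, so p-values measure only the spread between these libraries. LNCaP is an androgen-sensitive prostate cancer line, and 1 library of control cells (genotype WT) was set beside 1 library of LNCaP-ENZ cells, made by 30 days of enzalutamide and kept in 20 µM of this androgen receptor antagonist.

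JAK kinases sit on the inner tails of cytokine receptors. When a ligand brings receptor chains together, the kinases phosphorylate the receptor and then STAT proteins, which pair up through their SH2 domains, enter the nucleus and bind DNA. STAT2 acts with IRF9 downstream of type I interferons, STAT3 downstream of IL-6 type cytokines, STAT4 downstream of IL-12 and STAT6 downstream of IL-4. STAT5A and STAT5B are close paralogs downstream of prolactin, growth hormone and IL-2 type cytokines, and STAT5 signalling is known to sustain luminal cells of the prostate. SOCS proteins and CISH are induced by STATs and shut the kinases down, so their transcripts are often read as an output of the pathway. All values here are transcript levels, which do not measure phosphorylation.

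The 2 STAT5 genes and STAT3 lie side by side on chromosome 17. In the annotation lifted to GRCh37, STAT5B spanned chr17:40351194-40440651 on the minus strand, STAT5A spanned chr17:40439565-40463961 on the plus strand, and STAT3 spanned chr17:40465342-40540558 on the minus strand, 1380 bases beyond the end of STAT5A. The spans of STAT5A and STAT5B overlapped by 1087 bases, because 2 of the 30 annotated STAT5B transcripts reach into STAT5A. Exons of the pair shared 415 bases, or 6.50% of the STAT5A exon bases and 3.43% of those of STAT5B. The principal (MANE) transcripts of both genes shared 0 bases and left a gap of 12106 bases between their starts. The sources used here do not say that strand was used in counting, so reads from the shared 415 bases cannot be told apart. In the LNCaP table the STAT5B model reached up to position 40428424, short of STAT5A.

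The genes also resemble each other in sequence. Their coding sequences aligned over 2348 bases with 89.0% identity and 258 mismatches, and the longest identical run was 429 bases, at positions 675 to 1103 of the STAT5A transcript, inside its coding sequence (positions 112 to 2496). Of all 100-base windows of the STAT5A transcript, 371 of 3671 (10.1%) also occurred in STAT5B, and of the 150-base windows 280 of 3621 (7.73%) did. A read from such a window fits both genes equally well, whereas the rest of the transcript separates them. The first 150 bases of the identical run show what a read common to both genes looks like, and the first 90 coding bases show a stretch that separates them, with the 22 bases that differ between the genes in capitals.

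STAT5A and STAT5B, start of the identical run: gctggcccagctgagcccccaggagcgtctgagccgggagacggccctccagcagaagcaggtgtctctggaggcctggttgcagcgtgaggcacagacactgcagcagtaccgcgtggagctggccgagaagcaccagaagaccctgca
STAT5A, first coding bases: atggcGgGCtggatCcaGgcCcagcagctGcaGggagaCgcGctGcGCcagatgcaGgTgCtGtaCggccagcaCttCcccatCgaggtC
STAT5B, first coding bases: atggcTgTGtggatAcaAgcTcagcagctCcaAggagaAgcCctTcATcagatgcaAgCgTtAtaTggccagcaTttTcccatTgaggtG

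The regions before the transcription starts of the pair differed. In RefSeq (GRCh38.p14), the 250 bases before the most CG-rich of the 3 listed STAT5A starts (chr17:42288248-42288497, plus strand) held 29 CG dinucleotides, a number reached by 14.1% of 35116 such windows. The window before STAT5B (chr17:42276392-42276641, minus strand) held 47, reached by 0.33% of windows, and the median window held 11. The other STAT5A starts had 1 and 4. The STAT5A window with 29 and the STAT5B window are shown, with each CG in capitals. A link between these windows and the values after PAX6 knockdown was not tested. The motif TTCNNNGAA, the palindrome that STAT dimers are known to bind, was searched as written (it reads the same on both strands). It occurred in 0 of the 17 windows of the 9 genes and in 6.57% of all windows.

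STAT5A, 250 bases before the start: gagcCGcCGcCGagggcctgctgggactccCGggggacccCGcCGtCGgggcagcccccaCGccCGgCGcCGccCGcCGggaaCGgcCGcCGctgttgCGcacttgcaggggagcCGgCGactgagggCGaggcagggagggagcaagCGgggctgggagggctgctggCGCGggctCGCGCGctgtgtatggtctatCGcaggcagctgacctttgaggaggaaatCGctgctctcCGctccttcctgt
STAT5B, 250 bases before the start: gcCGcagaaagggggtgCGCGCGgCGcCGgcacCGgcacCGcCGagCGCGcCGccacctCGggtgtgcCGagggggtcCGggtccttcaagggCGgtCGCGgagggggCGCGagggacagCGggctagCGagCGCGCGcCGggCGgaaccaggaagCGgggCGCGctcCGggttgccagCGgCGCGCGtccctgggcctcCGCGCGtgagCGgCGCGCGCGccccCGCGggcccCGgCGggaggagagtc

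The DU145 values name no unit and were treated as FPKM, fragments scaled to transcript length and library size. Comparisons of levels between genes rest on that reading. PAX6, the targeted gene, stood at 0.839, 1.23 and 1.57 FPKM in shCON libraries 1 to 3 and at 0.0153, 0.274 and 0.0778 FPKM in shPAX6 libraries 1 to 3. The groups did not overlap, and shPAX6 held 10.1% of the shCON mean (log2 fold change -2.69, SE 0.49, adjusted p = 0.0539 by limma). PAX6 passed the filter of 0.5 FPKM through shCON alone (mean 1.21 FPKM against 0.1225 in shPAX6). The summed FPKM was 570790 in shPAX6 library 1 and between 448901 and 503696 in the other libraries. Of all tested features, 48.9% had their lowest value in shPAX6 library 1, and the same was true of 8 of the 9 STAT and JAK genes. A feature was called where limma's adjusted p was under 0.05, and 163 of 13574 tested features were (24 higher and 139 lower in shPAX6). Leaving out shCON library 1, 2 or 3 or shPAX6 library 3 left 0, 5, 0 and 10 calls, and leaving out shPAX6 library 1 or 2 gave 924 and 899. All 4 epithelial markers were detected in every library, and in DU145 they summed to between 1525 and 1654 FPKM in shCON and between 1135 and 1816 FPKM in shPAX6. Of these 4, 3 had lower values in shPAX6. CDH1 (E-cadherin) fell from 6.27, 5.24 and 6.91 FPKM to 0.654, 1.56 and 1.57 FPKM (log2 fold change -2.28, adjusted p = 0.0334, and between 0.144 and 0.264 without a shCON library or shPAX6 library 3). EPCAM, an epithelial adhesion protein, had separate groups at 59.0% of control (log2 fold change -0.75, adjusted p = 0.0537). Their part in the results for the STAT and JAK genes was not tested. The 12 leukocyte markers summed to between 0.731 and 1.32 FPKM in DU145, and of 7 prostate luminal markers all were detected in LNCaP but between 2 and 4 in DU145.

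STAT3 was the most abundant of the 9 transcripts in control DU145 cells, with 82.9 ± 8.60 FPKM (mean ± SD, n = 3). TYK2 and STAT6 followed at 32.8 ± 3.71 and 30.7 ± 1.71 FPKM, and their ranges overlapped. STAT2, JAK1 and STAT5B formed a next group at 14.7 ± 1.09, 14.0 ± 1.35 and 13.6 ± 1.42 FPKM, which did not differ beyond their spread. STAT5A reached 6.29 ± 0.57 FPKM, less than STAT5B in each of the 3 libraries. STAT4 at 1.52 ± 0.11 FPKM and JAK2 at 0.720 ± 0.285 FPKM were the least abundant. All 9 genes passed the filter of a mean of 0.5 FPKM over the 6 libraries.

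STAT5A fell after PAX6 knockdown, and it was the only one of the 9 genes that passed the test across all features. Its values were 6.39, 5.68 and 6.80 FPKM in shCON libraries 1 to 3 and 1.99, 2.91 and 2.82 FPKM in shPAX6 libraries 1 to 3. Every shPAX6 library lay below every shCON library, and the knockdown mean was 40.9% of the control mean. The log2 fold change was -1.27 (SE 0.21, 95% interval -1.76 to -0.78, limma adjusted p = 0.0423). In bulk RNA, a lower level per cell and fewer expressing cells cannot be told apart. Over all 13574 tested features, 1.2% passed the same threshold, 1.02% with a fall. The call was close to the threshold. Leaving out shCON library 1, 2 or 3 gave adjusted p = 0.227, 0.234 and 0.301, and leaving out shPAX6 library 3 gave 0.192. Without shPAX6 library 1 or 2 STAT5A was called, and over the 6 omissions the log2 fold change stayed between -1.37 and -1.10. After a correction for GC content in each library it was -0.96 with adjusted p = 0.0526, while the fold changes of 12009 genes correlated with GC content at rho = -0.363 (across genes, which are not independent).

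**Figure D1:**
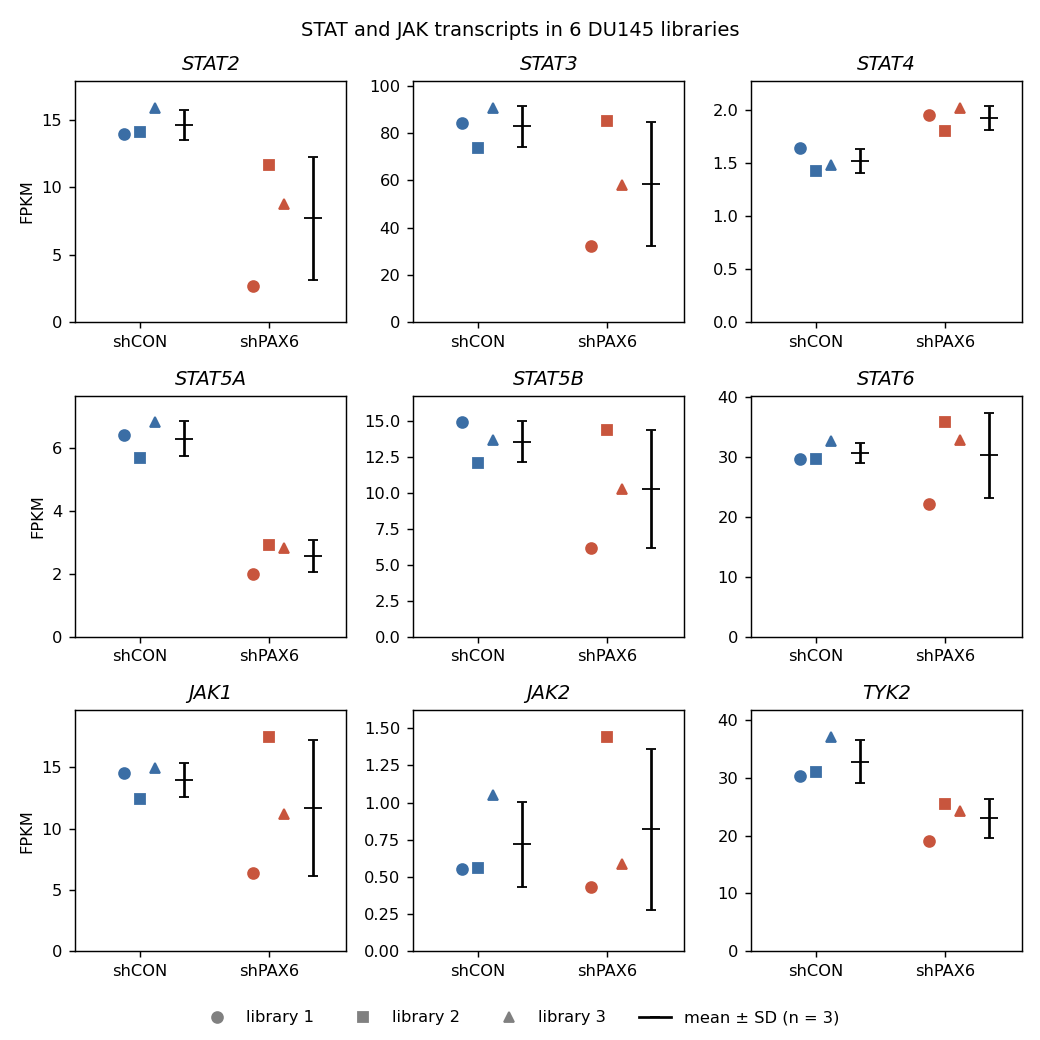
FPKM of the 9 STAT and JAK genes (y axes, each from 0) in the 3 shCON (blue) and 3 shPAX6 (red) DU145 libraries, with the mean ± SD in black and the library number given by the marker shape. STAT5A lies between 5.68 and 6.80 in shCON and between 1.99 and 2.91 in shPAX6, while STAT3, STAT5B, STAT6, JAK1 and JAK2 overlap between the groups.

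STAT5B, the paralog with overlapping transcripts, was not called. It measured 14.9, 12.1 and 13.7 FPKM in shCON libraries 1 to 3 and 6.18, 14.4 and 10.3 FPKM in shPAX6 libraries 1 to 3. The groups overlapped, since shPAX6 library 2 stood above the lower 2 control libraries. Its log2 fold change was -0.48 (SE 0.29, 95% interval -1.16 to 0.21, adjusted p = 0.448). It was -0.15 without shPAX6 library 1 and -0.76 without shPAX6 library 2 (adjusted p = 0.609 and 0.0757), and in the latter case the groups no longer overlapped. Within a library the ratio of the paralogs does not depend on library scaling, but it was not corrected for GC content. Log2(STAT5A/STAT5B) was -1.21, -1.08 and -1.002 in shCON libraries 1 to 3 and -1.59, -2.27 and -1.83 in shPAX6 libraries 1 to 3. The ratio was lower in all 3 shPAX6 libraries than in any shCON library, by 0.80 on the log2 scale (p = 0.1 in a two-sided exact permutation over the 6 libraries, a design that cannot give less). STAT5A thus supplied 30.0%, 31.9% and 33.2% of the summed STAT5 FPKM in shCON and 24.3%, 16.8% and 21.5% in shPAX6. Against the mean of the other 8 genes, STAT5A was lower by 0.93 on the log2 scale (p = 0.1 in the same exact permutation).

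STAT2, the interferon-specific member, gave 14.0, 14.1 and 15.9 FPKM in shCON libraries 1 to 3 and 2.68, 11.7 and 8.79 FPKM in shPAX6 libraries 1 to 3. No shPAX6 value reached the control range, but shPAX6 library 1 was far below libraries 2 and 3. The log2 fold change was -1.15 (SE 0.49, adjusted p = 0.266) and was -0.53 without that library (adjusted p = 0.0822). STAT3, which relays IL-6, had the same order among the shPAX6 libraries, with 84.3, 73.7 and 90.7 FPKM in shCON and 32.3, 85.0 and 58.1 FPKM in shPAX6. Its groups overlapped (log2 fold change -0.61, SE 0.32, adjusted p = 0.375). The STAT3 value was -0.23 without shPAX6 library 1 and -0.93 without shPAX6 library 2 (adjusted p = 0.425 and 0.052). STAT6, the IL-4 member, overlapped as well, at 29.7, 29.7 and 32.7 FPKM against 22.2, 35.8 and 32.9 FPKM (log2 fold change -0.05, SE 0.19). Its sign turned under 3 other scalings, with values of 0.25 after the GC correction, 0.13 after median centring and 0.071 after quantile normalization.

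STAT4, best known from T and NK cells, was low in all libraries and was the member whose shPAX6 values all lay above the controls. It measured 1.65, 1.43 and 1.49 FPKM in shCON libraries 1 to 3 and 1.96, 1.81 and 2.02 FPKM in shPAX6 libraries 1 to 3. The log2 fold change was 0.33 (SE 0.20, 95% interval -0.15 to 0.80, adjusted p = 0.458), so the difference was not called. The summed FPKM of the 12 leukocyte markers was between 1.11 and 1.32 in shCON and between 0.731 and 1.22 in shPAX6. Their part in the STAT4 values was not tested.

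Among the kinases, the groups separated for TYK2, which serves interferon and IL-12 receptors. TYK2 stood at 30.3, 31.0 and 37.1 FPKM in shCON libraries 1 to 3 and at 19.1, 25.6 and 24.3 FPKM in shPAX6 libraries 1 to 3. Its log2 fold change was -0.52 (SE 0.16, 95% interval -0.89 to -0.14, unadjusted p = 0.0139 by limma), which did not pass the adjustment (adjusted p = 0.165) and was -0.17 after the GC correction. JAK1, shared by interferon, IL-6 and IL-2 type receptors, overlapped at 14.5, 12.4 and 15.0 FPKM against 6.39, 17.5 and 11.2 FPKM (log2 fold change -0.37, SE 0.33), and its value was 0.0049 without shPAX6 library 1 and -0.71 without shPAX6 library 2. JAK2, the kinase of the growth hormone and prolactin receptors, was near the filter at 0.551, 0.561 and 1.05 FPKM against 0.429, 1.44 and 0.588 FPKM (log2 fold change 0.06, SE 0.46). The 2 highest JAK2 values came from shPAX6 library 2 and shCON library 3, and leaving out shPAX6 library 2 turned the sign to -0.39.

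Counted over the family, 1 of 9 genes was called, against 1.2% of all features. The groups did not overlap for 4 of 9 genes (STAT2, STAT5A and TYK2 lower, STAT4 higher), against 26.7% of all tested features (20.0% lower, 6.7% higher). An unadjusted limma p under 0.05 was found for 3 of 9 genes and for 18.3% of features. The median log2 fold change of the 9 genes was -0.48, and that of all features was -0.12, which came to 0.06 after median centring and to 0.02 after the GC correction. The count of genes with separate groups was 5 without shPAX6 library 1, 7 without shPAX6 library 2 and 4 with each of the other libraries left out.

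**Figure D2:**
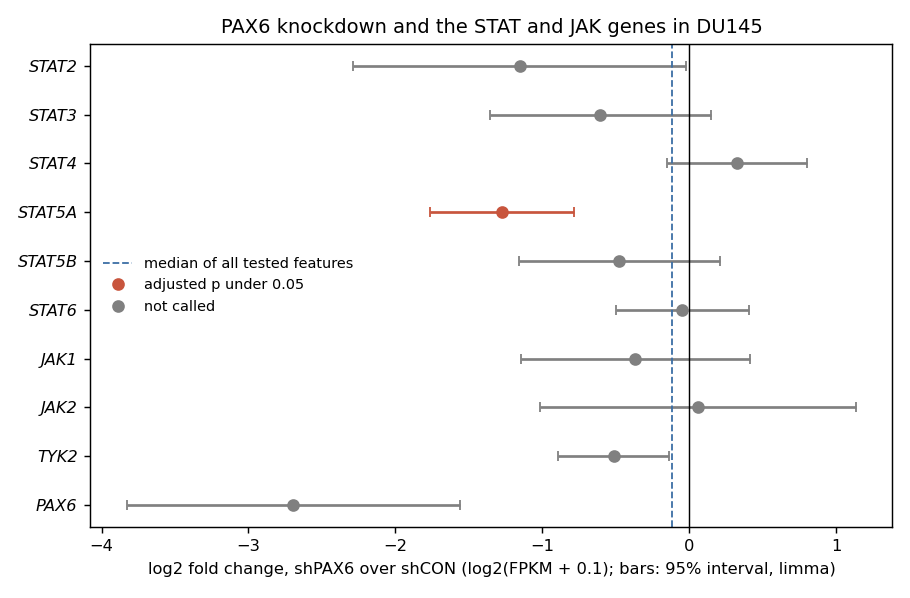
Log2 fold change (x axis, shPAX6 over shCON on the log2(FPKM + 0.1) scale) of PAX6 and the 9 STAT and JAK genes with 95% intervals from limma, n = 3 libraries per group. STAT5A at -1.27 is the called gene in red, grey genes were not called, and the dashed line marks the median of all tested features at -0.12.

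The features whose profile over the 6 DU145 libraries came closest to that of STAT5A were not STAT or JAK genes. With so few STAT and JAK genes among 13573 ranked features, that is likely in any case. By root mean square distance of log2 values centred on the shCON mean, the nearest were C1S (a complement protease, 0.0539), PRX (periaxin, 0.054), TGM2 (transglutaminase 2, 0.0841), PTK7 (a catalytically inactive receptor kinase, 0.0958) and ZNF488 (a zinc finger gene, 0.096). Their log2 fold changes were -1.24, -1.25, -1.25, -1.36 and -1.18, close to that of STAT5A because they were selected on these same values. TGM2 and PTK7 were called (adjusted p = 0.0444 and 0.0259, and between 0.158 and 0.301 without a shCON library or shPAX6 library 3), and C1S, PRX and ZNF488 were not (0.0719, 0.0663 and 0.0564). The TGM2 call was also lost after the GC correction (0.0596), median centring (0.0504) and quantile normalization (0.0573). The nearest member was STAT2, at rank 993 of 13573 with a distance of 0.48, and STAT5B came at rank 2032. Of the genes next to the locus, GHDC, which lies beyond STAT5B, fell from 8.68, 8.91 and 10.3 FPKM to 4.10, 4.01 and 4.68 FPKM (log2 fold change -1.11, SE 0.16, adjusted p = 0.033). GHDC lost this call without any shCON library or without shPAX6 library 3 (adjusted p between 0.16 and 0.264), with median centring (0.0707) and with quantile normalization (0.0552). The 2 tested genes beyond STAT3 had overlapping groups and log2 fold changes of 0.11 and -0.01. MET, a receptor tyrosine kinase that the series title pairs with STAT5A, measured 20.8, 16.7 and 19.5 FPKM in shCON libraries 1 to 3 and 12.1, 37.3 and 18.9 FPKM in shPAX6 libraries 1 to 3. Its groups overlapped (log2 fold change 0.11, SE 0.37, adjusted p = 0.914), and without shPAX6 library 2 the value was -0.32.

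The rest of the pathway was read in 9 lists of 152 distinct genes, of which 101 could be tested in DU145. Of these, 10 were called, all lower in shPAX6 (9.9%, against 1.2% of all features, 1.02% with a fall). The interferon and STAT2-IRF9 target list gave 6 of the 10, and the rest were IL27RA, SOCS2, BCL3 and JUNB. The lists were chosen with earlier results of these data known, so the pooled share is not a result about the whole pathway. Counts of lower values in the lists stand beside 8542 lower and 5032 higher values among all 13574 features. Among receptor chains, 4 of 21 tested genes had higher and 17 had lower values in shPAX6, with a median log2 fold change of -0.23. IL27RA, the IL-27 receptor, fell from 28.6, 30.5 and 33.3 FPKM to 13.9, 17.0 and 16.8 FPKM (log2 fold change -0.95, adjusted p = 0.0334, between 0.177 and 0.264 without a shCON library or shPAX6 library 3, 0.0523 after the GC correction and 0.0571 after median centring). IL4R, through which IL-4 reaches STAT6, went from 12.6, 13.4 and 14.3 FPKM to 4.36, 7.27 and 7.15 FPKM without passing (log2 fold change -1.12, adjusted p = 0.0642). It was called after quantile normalization (adjusted p = 0.0338), but not after the GC correction (0.106) or median centring (0.0504). LIFR had the highest positive value of the list (0.45, adjusted p = 0.481). Among ligands, 0 of 9 were called, 4 had higher and 5 had lower values and 3 had an unadjusted p under 0.05 (18.3% of all features did). IL6 gave a log2 fold change of -0.94 (adjusted p = 0.0958) and CSF2 one of 0.47 (adjusted p = 0.212). The ligand median was -0.11, and it turned to 0.094 after the GC correction and to 0.070 after median centring.

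Of the feedback inhibitors, 1 of 7 tested SOCS and CISH genes was called (1.2% of all features were) and 6 of 7 had lower values, with a median of -0.39 against -0.12 over all features. SOCS2, an inhibitor of growth hormone signalling and a known STAT5 target, fell from 28.7, 28.2 and 35.6 FPKM to 14.2, 17.4 and 15.1 FPKM (log2 fold change -0.98, SE 0.15, adjusted p = 0.0384, and between 0.186 and 0.264 without a shCON library or shPAX6 library 3). CISH, another known STAT5 target, stood at 0.780, 0.725 and 1.10 FPKM in shCON and at 0.153, 0.262 and 0.337 FPKM in shPAX6. The CISH groups did not overlap, yet it was not called (log2 fold change -1.48, SE 0.34, adjusted p = 0.0835). CISH passed the filter through shCON alone (mean 0.869 FPKM against 0.251 in shPAX6). The list of 11 tested STAT5 target genes had 8 lower and 3 higher values and SOCS2 as the only call, which was lost after median centring (adjusted p = 0.063). CCND1 (cyclin D1) and the kinase gene PIM1 had values of 0.72 (adjusted p = 0.0923) and 0.34 (adjusted p = 0.35), with separate groups in which shPAX6 was higher. CCND1 was called as higher after the GC correction (0.91, adjusted p = 0.025) and after median centring (0.90, adjusted p = 0.0496). CISH was not called in those fits (adjusted p = 0.0953 and 0.104). With array weights, CCND1 was called as higher (0.73, adjusted p = 0.00021) and CISH as lower (-1.14, adjusted p = 0.00467). That fit weights each library, leans on shPAX6 library 3 and called 4569 of 13574 features. The STAT5 target median was -0.17, and it turned to 0.14 after the GC correction and to 0.00077 after median centring. The 4 PIAS genes had 0 calls and a median of -0.13, which turned to 0.045 after median centring and to 0.025 after quantile normalization. The largest value among them was that of PIAS3, an inhibitor of STAT3 (-0.66, adjusted p = 0.207).

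Of 15 tested STAT3 target genes, 2 were called, 10 had lower and 5 had higher values, and the median was -0.25. BCL3, a partner of NF-kB proteins, fell with a log2 fold change of -1.12 (adjusted p = 0.0402), and JUNB, an AP-1 subunit, fell with -1.03 (adjusted p = 0.0407). Neither was called after median centring (BCL3 adjusted p = 0.157, JUNB 0.153), nor BCL3 after quantile normalization (0.0656, JUNB 0.0418). Both calls were also lost without a shCON library or shPAX6 library 3 (adjusted p between 0.140 and 0.294). The GC correction brought them to -0.70 and -0.63, and both stayed called (adjusted p = 0.0226 and 0.0472). FGB, a fibrinogen chain made in the acute phase, stood at 0.226, 0.194 and 0.139 FPKM in shCON and at 0.790, 1.23 and 0.546 FPKM in shPAX6 but was not called (log2 fold change 1.69, adjusted p = 0.0744). FGB passed the filter through shPAX6 alone (mean 0.855 FPKM against 0.187 in shCON). All 20 tested interferon and STAT2-IRF9 target genes had lower values, 6 were called (OAS1, IFI44, MX1, IFIT1, IFIT2 and IFIT3, against 1.02% of features with a called fall), and the median was -1.14. OAS1 passed the filter through shCON alone (mean 1.66 FPKM against 0.0765 in shPAX6). MX1 fell from 16.1, 15.8 and 19.7 FPKM to 4.31, 5.66 and 4.82 FPKM (adjusted p = 0.00962), and IFIT1 from 23.7, 22.7 and 23.3 FPKM to 6.33, 6.38 and 7.69 FPKM (adjusted p = 0.00462). Among 13 phosphatases and adaptors and 11 other tyrosine kinases, 0 genes were called and 4 of each list had an unadjusted p under 0.05, against 18.3% of all features. The kinases under 0.05 include FGFR3, which passed the filter through shCON alone (mean 0.743 FPKM against 0.391 in shPAX6). The count of called list genes, 10 with all libraries, was 0 without shCON library 1, 2 or 3, 1 without shPAX6 library 3, 21 without shPAX6 library 1 and 23 without shPAX6 library 2.

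**Figure D3:**
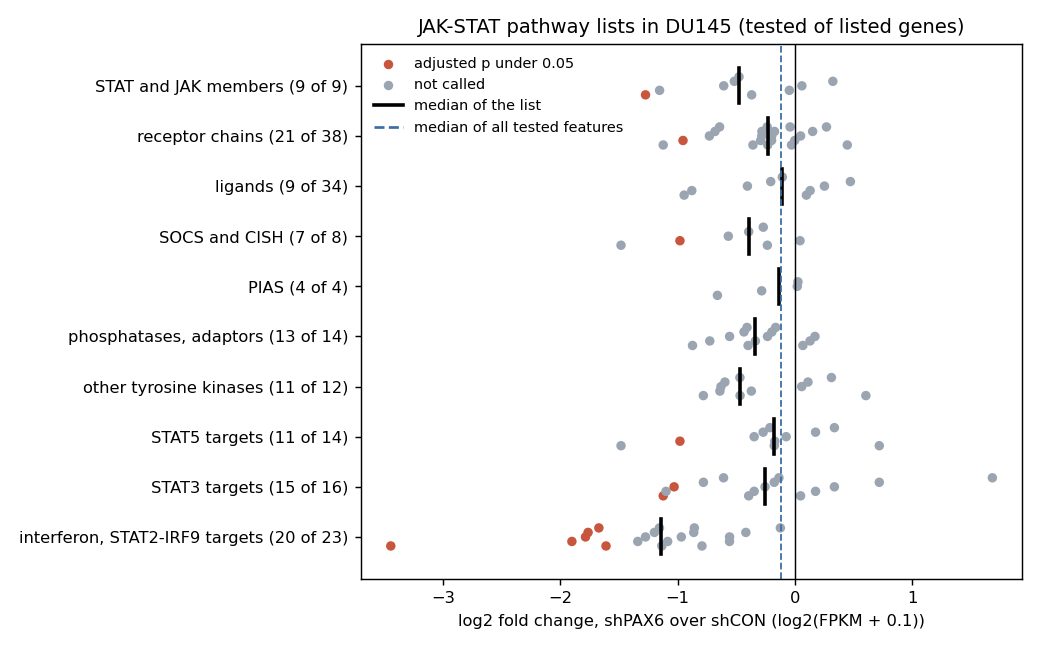
Log2 fold change (x axis, shPAX6 over shCON) of each tested gene of the STAT and JAK family and of 9 pathway lists in DU145, with called genes in red, the median of a list as a black bar and the median of all features as a dashed line. The interferon and STAT2-IRF9 targets have a median of -1.14, and the medians of the other lists lie between -0.48 and -0.11.

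In LNCaP, 20468001 counts were assigned to genes in the control library and 17945722 in the LNCaP-ENZ library, and counts were scaled to CPM (counts scaled to the library total). With 1 library per arm there is no replicate check, and the 95% Clopper-Pearson intervals cover counting error only. PAX6 itself had 11 counts in control cells and 4 in LNCaP-ENZ cells (log2 ratio -0.98, interval -3.38 to 0.49). Of the 9 STAT and JAK genes, 6 reached a mean of 1 CPM. A 2-fold difference was reached by 0 of these 6, against 11.4% of the 14767 genes at that level (1.84% higher and 9.57% lower). The median log2 ratio of the 6 genes was -0.0023, and that of all genes was -0.15, which came to -0.01 with edgeR's TMM factors and to 0.02 with DESeq2's size factors.

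The well-counted members were close to equal in both libraries. STAT3 had 3337 and 2922 counts in control and LNCaP-ENZ cells, or 163.0 and 162.8 CPM (log2 ratio -0.0019, interval -0.07 to 0.07). STAT5B had 1348 and 1189 counts (0.01, interval -0.11 to 0.12), STAT2 had 1198 and 1075 (0.03, interval -0.09 to 0.15) and TYK2 had 1071 and 926 (-0.02, interval -0.15 to 0.11). JAK1 was far less counted, at 64 and 56 (interval -0.55 to 0.54). Scaled to library totals, JAK2 was the member whose counting interval did not include equal levels (log2 ratio -0.48, interval -0.98 to -0.02). It had 98 and 61 counts, or 4.79 and 3.40 CPM. The median of all genes was -0.15 under that scaling. With this median set to 0, JAK2 came to -0.33, and which of the intervals include equal levels can change. STAT6 had 16 and 13 counts (-0.10, interval -1.29 to 1.04). With the median of all genes set to 0, the log2 ratios of the 5 genes other than JAK2 that reached 1 CPM lay between 0.13 and 0.19.

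STAT5A and STAT4 were at the limit of detection in LNCaP. STAT5A had 6 counts in control cells and 1 in LNCaP-ENZ cells, or 0.293 CPM (interval 0.108 to 0.638) and 0.0557 CPM (interval 0.0014 to 0.311). The floor of 3 counts corresponds to 0.147 CPM in the control and 0.167 CPM in the LNCaP-ENZ library. The log2 ratio was -1.34 with an interval of -7.92 to 0.65, so a difference was not detectable at this depth. STAT4 had 1 and 0 counts, and no ratio is given. Of the 1354 counts of the STAT5 pair, STAT5A held 0.443% (interval 0.163 to 0.962%) in control cells, and of 1190 it held 0.084% (interval 0.0021 to 0.467%) in LNCaP-ENZ cells.

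**Figure D4:**
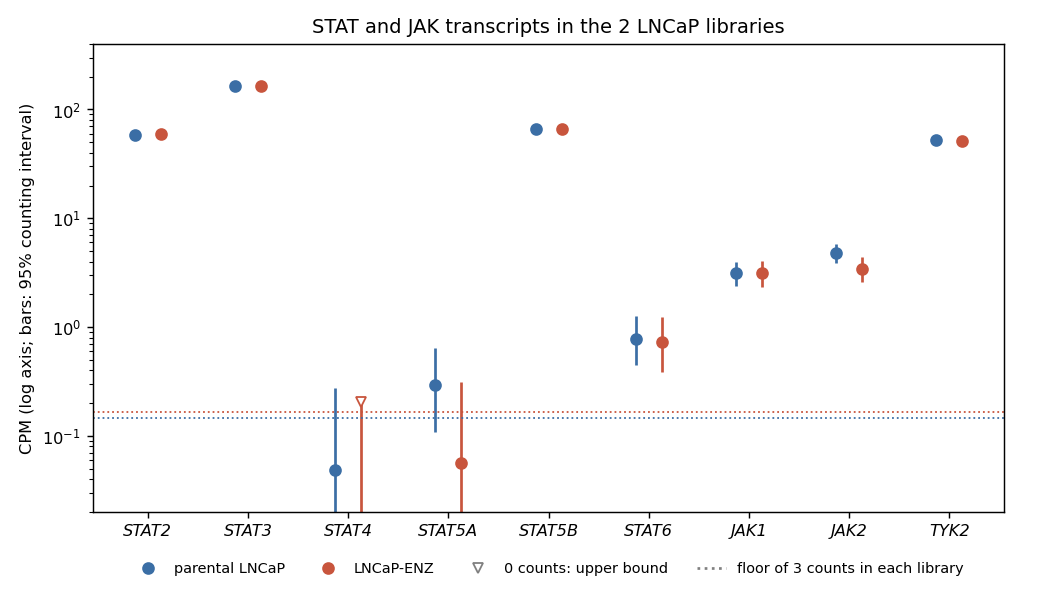
CPM (y axis, log scale) of the 9 STAT and JAK genes in the control (blue) and LNCaP-ENZ (red) library, 1 library each, with 95% counting intervals and dotted lines at the floor of 3 counts. STAT3, STAT5B, STAT2 and TYK2 lie above 50 CPM in both libraries, STAT5A and STAT4 at or near the floor.

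Set beside each other, the lines differed in which members made up the family. The tables were normalized separately, so only shares within a library, each per kilobase, are given. STAT3 made up between 53.9% and 56.2% of the summed FPKM of the 6 STAT genes in the DU145 shCON libraries, and 55.7% and 55.4% of the summed TPM (also scaled to length) in control and LNCaP-ENZ cells. STAT6 made up between 19.7% and 21.8% in DU145 shCON and 0.311% and 0.287% in the LNCaP libraries. STAT5B held between 8.51% and 9.89% in DU145 shCON and 22.0% in both LNCaP libraries. STAT5A held between 4.15% and 4.23% in DU145 shCON and 0.111% and 0.021% in LNCaP. Within the JAK genes, JAK1 gave between 28.2% and 32.0% in DU145 shCON and 4.09% and 4.21% in LNCaP, where TYK2 gave 89.8% and 91.3%. These differences between lines were not tested, since each LNCaP group is 1 library and the tables differ in processing.

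**Figure D5:**
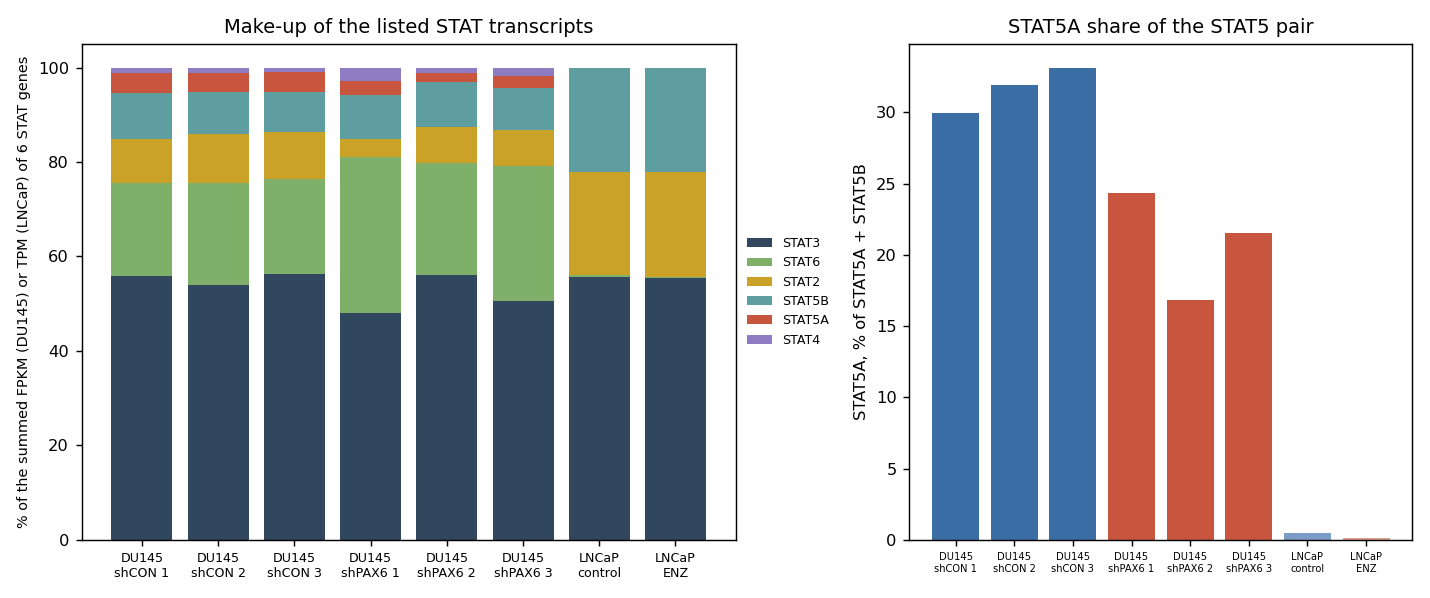
Share of each of 6 STAT genes in their summed FPKM (DU145, 6 libraries) or TPM (LNCaP, 2 libraries) on the left, and STAT5A as a percentage of STAT5A + STAT5B on the right (y axes in percent, from 0). STAT6 makes up 19.7% or more of the DU145 bars and 0.311% or less of the LNCaP bars, and the STAT5A share is between 30.0% and 33.2% in shCON and between 16.8% and 24.3% in shPAX6.

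Larger differences between the 2 LNCaP libraries were counted among other genes of the pathway. Genes entered on the mean CPM of the 2 libraries. IL2RB (2.74 CPM in control and 0.279 in LNCaP-ENZ cells), FYN (2.69 and 0.446) and ID1 (0.977 and 4.07) reached 1 CPM in 1 library alone. Of the receptor chains, 5 of 20 genes at a mean of 1 CPM or more were at least 2-fold lower, against 9.57% of all genes. GHR, the growth hormone receptor, had 438 counts in control and 84 in LNCaP-ENZ cells (log2 ratio -2.17, interval -2.55 to -1.85), and IL2RB, a chain of the IL-2 receptor, had 56 and 5. IL6ST, the gp130 chain shared by IL-6 type receptors, had 706 and 281 (-1.13, interval -1.34 to -0.94). SOCS4 (661 and 250 counts) and PIAS1 (927 and 389 counts) had log2 ratios of -1.21 and -1.06, the SOCS and CISH median was -0.72, and with the median of all genes set to 0 IL6ST and PIAS1 came to -0.98 and -0.91. SOCS2 had 120 and 63 counts (-0.72, interval -1.20 to -0.29). FYN (55 and 8) and YES1 (934 and 286), kinases of the SRC family, were also at least 2-fold lower, as was HIF1A among STAT3 targets (1596 and 428). Higher in LNCaP-ENZ cells by at least 2-fold were ID1 (20 and 73 counts), OAS1 (36 and 107), IRF9, the partner of STAT2 (56 and 111), and the cytokine gene TSLP (48 and 91). The interferon and STAT2-IRF9 targets as a list had 8 higher and 8 lower values and a median of 0.0014. IFITM1 had 684 and 246 counts (-1.28, interval -1.50 to -1.07).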

How the data were processed

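RNA-seq of DU145 (3 shCON, 3 shPAX6) and LNCaP cells (1 control, 1 LNCaP-ENZ) was analysed. The 6 ATAC-seq samples were not used here. The paper's methods state 3 replicates per line, alignment to GRCh37 with HISAT2, quantification with StringTie and testing with DESeq2, and the labels describe another library kit and read length. The DU145 values deposited by the authors carry no unit name and were treated as FPKM, so no count test was run on them. Ratios of the low values of 359 features shared no step, with at most 2.51% in the same bin, so read counts were not recovered. The LNCaP table, as deposited, holds raw counts and TPM, of which the transcript RN7SK takes 38.8% and 38.5%, so counts were used for ratios.

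DU145 values were tested with limma 3.58.1 after transformation to log2(FPKM + 0.1), with a moderated variance that follows expression. Features averaging 0.5 FPKM or more entered, and p-values were two-sided with Benjamini-Hochberg adjustment over all features at 0.05. A gene under 0.5 FPKM in 1 group could enter through the other, as PAX6, CISH, FGB, FGFR3 and OAS1 did. The scale understates changes of low genes. Single ratios were tested by exact permutation over 20 splits. LNCaP libraries were compared by log2(CPM + 0.1), with 95% intervals and a floor of 3 counts. The fit was tested on simulated data. The members and lists were chosen with earlier results of these data known. Named genes were the 9 members, PAX6, at most the 2 largest values per list and direction plus any called, the neighbours of STAT5A and the 5 nearest profiles, of which some are given only as counts. MET was added because the series title names it. Genes were matched by symbol, positions come from GENCODE lifted to GRCh37, and promoter windows from RefSeq. Alternatives were pseudocounts of 1 and 0.01, other filters, scalings, array weights, GC correction (loess, span 0.5, degree 2), the replicate block and each library left out.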

Additional observations from a re-analysis of the deposited data

How the results depend on the processing

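In DU145, STAT5A kept a negative log2 fold change under all 17 alternatives tried, between -1.37 and -0.96. It was no longer called with the GC correction (-0.96, adjusted p = 0.0526), with no filter on low values (-1.27, adjusted p = 0.0736), with the replicate block (-1.27, adjusted p = 0.222), with the replicate block and GC correction (-0.96, adjusted p = 0.23), and without shCON library 1, 2 or 3 or shPAX6 library 3. It stayed called without shPAX6 library 1 or 2, and the fits that left out a library gave -1.37 to -1.10. The number of members called was 0 with the GC correction, with no filter on low values, with the replicate block and with the block and GC correction, 5 with array weights, and 0 to 1 with a library left out. Over all features, 100 were called after median centring, 4569 with array weights, 0 with the replicate block (1568 at an unadjusted p under 0.05), 7 with the block and GC correction, and 0 to 924 with a library left out. The array weights were 1.58, 1.8 and 1.39 for shCON libraries 1 to 3 and 0.163, 0.27 and 5.74 for shPAX6 libraries 1 to 3. The shPAX6 levels in that fit thus came mainly from library 3. Calls were 85.3% falls, against 72.0% after median centring, 68.6% after quantile normalization, 55.0% after the GC correction and 66.2% with array weights. Of the pathway list genes, 49 were called with array weights, 4 with no filter on low values, 0 with the replicate block, 1 with the block and GC correction, and 0 to 23 with a library left out. Same-numbered deviations from the group means correlated at -0.166, -0.366 and 0.0519, and different-numbered ones at between -0.195 and 0.366. These values cannot show whether the replicate numbers pair the libraries, because the 3 deviations of a group sum to 0. The block fit is therefore given beside the others, and its lost calls are neither set aside nor read as weaker effects.

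The STAT5A over STAT5B difference stayed negative under the alternatives tried for it (pseudocounts, medians, the replicate block and each library left out). It lay between -0.95 and -0.61 with a library left out, and was -0.80 with the replicate block. No GC-corrected ratio was computed, and the longest transcripts of STAT5A and STAT5B have 57.8% and 51.3% GC. STAT6 turned to 0.25 with the GC correction (with and without the replicate block), 0.10 with array weights, 0.13 after median centring, 0.071 after quantile normalization. JAK2 turned to -0.13 with array weights. With a library left out, STAT6 ranged from -0.18 to 0.16, JAK1 from -0.71 to 0.0049, JAK2 from -0.39 to 0.38 and MET from -0.32 to 0.49. List medians turned for PIAS genes (0.045 after median centring, 0.025 after quantile normalization), for ligands (0.094 with the GC correction and with the replicate block and GC correction, 0.070 after median centring) and for STAT5 targets (0.14 in both GC fits, 0.00077 after median centring). The cause was not tested. In LNCaP, 1 member passed 2-fold with no filter on low counts (STAT5A, at 6 and 1 counts), and 0 under the other alternatives. Depth limits STAT4, STAT5A and STAT6 there, and DU145 read depth is unknown.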
